A study of Mus musculus with 18 samples.

Results

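The retinoid binding and retinoic acid genes were a set of 9 mouse genes: the carriers Crabp1, Crabp2 and Rbp4, the retinal dehydrogenases Aldh1a1, Aldh1a2 and Aldh1a3, and the nuclear receptors Rara, Rarb and Rarg. They were taken as every probe set whose single platform gene symbol was one of these names, which gave 12 probe sets, 3 for Aldh1a3, 2 for Rarg and 1 for each of the other 7 genes, out of 18193 genes with a probe set of their own. The set was chosen on measured values, because Crabp1 had the largest difference between the treated arms of any gene tested. For that reason Crabp1 is described without a test throughout, and the difference between the treated arms is described without a test for all 9 genes.

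The data were one-colour Affymetrix array intensities from 18 allografts of iNRAS-475, a single mouse melanoma cell line, grown intradermally in nude mice, whose own stroma, vessels and myeloid cells enter the tumour. All mice first drank water with 2 mg/ml doxycycline, and the tumours reached 200 to 500 mm3 after 6 weeks. The vehicle arm (6 tumours) then received vehicle, the MEK inhibitor arm (6 tumours) received AZD6244 at 100 mg/kg for 4 days, and the NRAS-off arm (6 tumours, labelled -NRAS) had doxycycline withdrawn for 4 days. The series compares genetic loss of NRAS with drug inhibition of MEK, a kinase downstream of RAS, and each array is a distinct tumour. The labels do not say whether the vehicle and MEK inhibitor mice stayed on doxycycline during treatment. The removal of doxycycline itself and the loss of NRAS cannot be told apart in the NRAS-off arm, and the promoter and cell type that drive the transgene were not given in the sources used here. Sox10, a transcription factor of the melanocyte lineage, lay between 7901 and 16609 intensity units in the 18 tumours, whereas the pigment cell genes Tyr, Tyrp1 and Trpm1 had means at or below the intensity filter of 23.5 and Mlana lay between 19.1 and 71.3. Array medians lay between 72.3 and 78.5, and pairs of tumours of one arm correlated at 0.987 to 0.997 across probe sets. NRAS-off replicate 2 stood apart in skin keratinocyte transcripts, with a summed intensity over 10 markers of 33327, where the rest of that arm lay at 835 to 1095, and MEK inhibitor replicate 6 had the highest sum of its arm, 1482.

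Retinol, or vitamin A, travels in blood bound to RBP4, which is made mainly by liver and adipose tissue. Cells oxidise it to retinal, for which RDH10 is a main enzyme, and the ALDH1A enzymes oxidise retinal to retinoic acid. The CRABP proteins hold retinoic acid in the cytoplasm: CRABP2 passes it to the nuclear receptors, while CRABP1 is mostly linked to its sequestration and breakdown by CYP26 enzymes. The receptors RARA, RARB and RARG bind DNA as partners of the RXR proteins and switch genes on when retinoic acid is bound. In development the pathway patterns the neural crest, from which melanocytes arise, and retinoic acid slows the growth of some cultured melanoma lines and promotes their pigmentation.

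To give the sequence context of the members, the 250 bases upstream of annotated starts were taken from RefSeq (GRCm38.p6), which held 13 such windows for 7 of the 9 members; none was matched for Crabp2 and Aldh1a3. They were searched on both strands for an AP-1 site (TGACTCA), an ETS site (CCGGAAGT), an E-box (CACGTG) and the nuclear receptor hexamer (AGGTCA). The direct repeats known as DR1, DR2 and DR5 were searched as well, with a looser hexamer: A or G, G, G or T, then TCA. The shares of the repeats and of the single hexamer AGGTCA, which can also lie inside a repeat, thus rest on different patterns. Of 32817 windows of the same length, 4.46% held the AP-1 site, 2.88% the ETS site, 6.02% the E-box, 14% the hexamer, 0.165% DR1, 0.174% DR2 and 0.0884% DR5. The 4 windows shown belong to the carrier that differed most, to the receptor gene with the textbook retinoic acid element, and to the members that rose most after NRAS was switched off. They are written 5′ to 3′ on the strand of the gene, with a motif match in capitals.
Crabp1, chr9:54764498-54764747, plus strand, no match: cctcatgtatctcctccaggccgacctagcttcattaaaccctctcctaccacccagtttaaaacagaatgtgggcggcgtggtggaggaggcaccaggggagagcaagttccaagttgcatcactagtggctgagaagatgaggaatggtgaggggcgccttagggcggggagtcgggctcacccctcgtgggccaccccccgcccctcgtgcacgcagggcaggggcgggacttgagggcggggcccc
Rarb, chr14:16575477-16575726, minus strand, DR5 in capitals: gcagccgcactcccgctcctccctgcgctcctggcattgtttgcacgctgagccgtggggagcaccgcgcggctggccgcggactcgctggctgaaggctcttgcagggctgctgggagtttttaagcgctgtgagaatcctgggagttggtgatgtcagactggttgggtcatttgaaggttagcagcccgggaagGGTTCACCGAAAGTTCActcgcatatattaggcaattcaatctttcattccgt
Aldh1a1, chr19:20492333-20492582, plus strand, AP-1 site in capitals: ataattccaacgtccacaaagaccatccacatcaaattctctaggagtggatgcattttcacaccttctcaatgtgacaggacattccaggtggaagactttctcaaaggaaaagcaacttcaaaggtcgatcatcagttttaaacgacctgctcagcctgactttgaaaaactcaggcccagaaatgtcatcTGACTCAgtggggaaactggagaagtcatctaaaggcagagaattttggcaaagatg
Rbp4, chr19:38124812-38125061, minus strand, AP-1 site in capitals: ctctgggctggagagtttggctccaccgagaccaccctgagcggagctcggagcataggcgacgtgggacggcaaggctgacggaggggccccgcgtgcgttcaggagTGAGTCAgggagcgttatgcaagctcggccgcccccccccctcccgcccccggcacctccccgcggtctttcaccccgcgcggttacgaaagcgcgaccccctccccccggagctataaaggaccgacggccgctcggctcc
The Rarb element lay 53 to 37 bases before the annotated start. The AP-1 match of Aldh1a1 lay 57 to 51 bases before the start, and that of Rbp4, which is on the opposite strand, 142 to 136 bases before it. Aldh1a1 and Rbp4 each had another annotated start, whose window (chr19:20601718-20601967 and chr19:38125322-38125571) held no match and is not shown. Among the windows not shown, 1 of Rara held an E-box and 1 of Rarg a hexamer. The Crabp1 window was rich in G and C, 63.6% against a median of 52.4% over the 32817 windows compared. Those windows left out 1 chromosome, on which no member lies. Crabp1 did not stand out in this among the 13 member windows. Their share ran from 40.8% (the Rbp4 window not shown) to 77.6% (Aldh1a2), with 70.8% in the printed Rbp4 window. A match describes the letters of a window only, and the arrays did not measure binding.

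The carriers came first. Crabp1 (probe set 1448326_a_at) was at 4571, 5141 and 8433 intensity units in the lowest, median and highest vehicle tumour, at 2463, 3536 and 4954 with the MEK inhibitor, and at 85.6, 159 and 251 in NRAS-off tumours. The NRAS-off tumours did not overlap either other arm, whereas the highest MEK inhibitor tumour lay within the vehicle range. The means were 5558 ± 1456 (SD, n = 6), 3586 ± 891 and 159 ± 60.8, so the vehicle mean was 34.9 times the NRAS-off mean and 1.55 times the MEK inhibitor mean. On the log2(intensity + 16) scale, on which all differences below are given, NRAS-off minus vehicle was −5.03 ± 0.22 (SE) and MEK inhibitor minus vehicle was −0.63 ± 0.22. NRAS-off minus MEK inhibitor was −4.40 ± 0.22, followed among the 15005 genes tested by Nefl at −3.94 ± 0.18 and Hmga2 at −3.91 ± 0.19, which lay just below Crabp1 in size. Without NRAS-off replicate 2, the tumour with the most keratinocyte transcript, it was −4.54. In bulk tumour RNA, fewer cells of a type and less RNA per cell cannot be told apart.

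**Figure D1:**
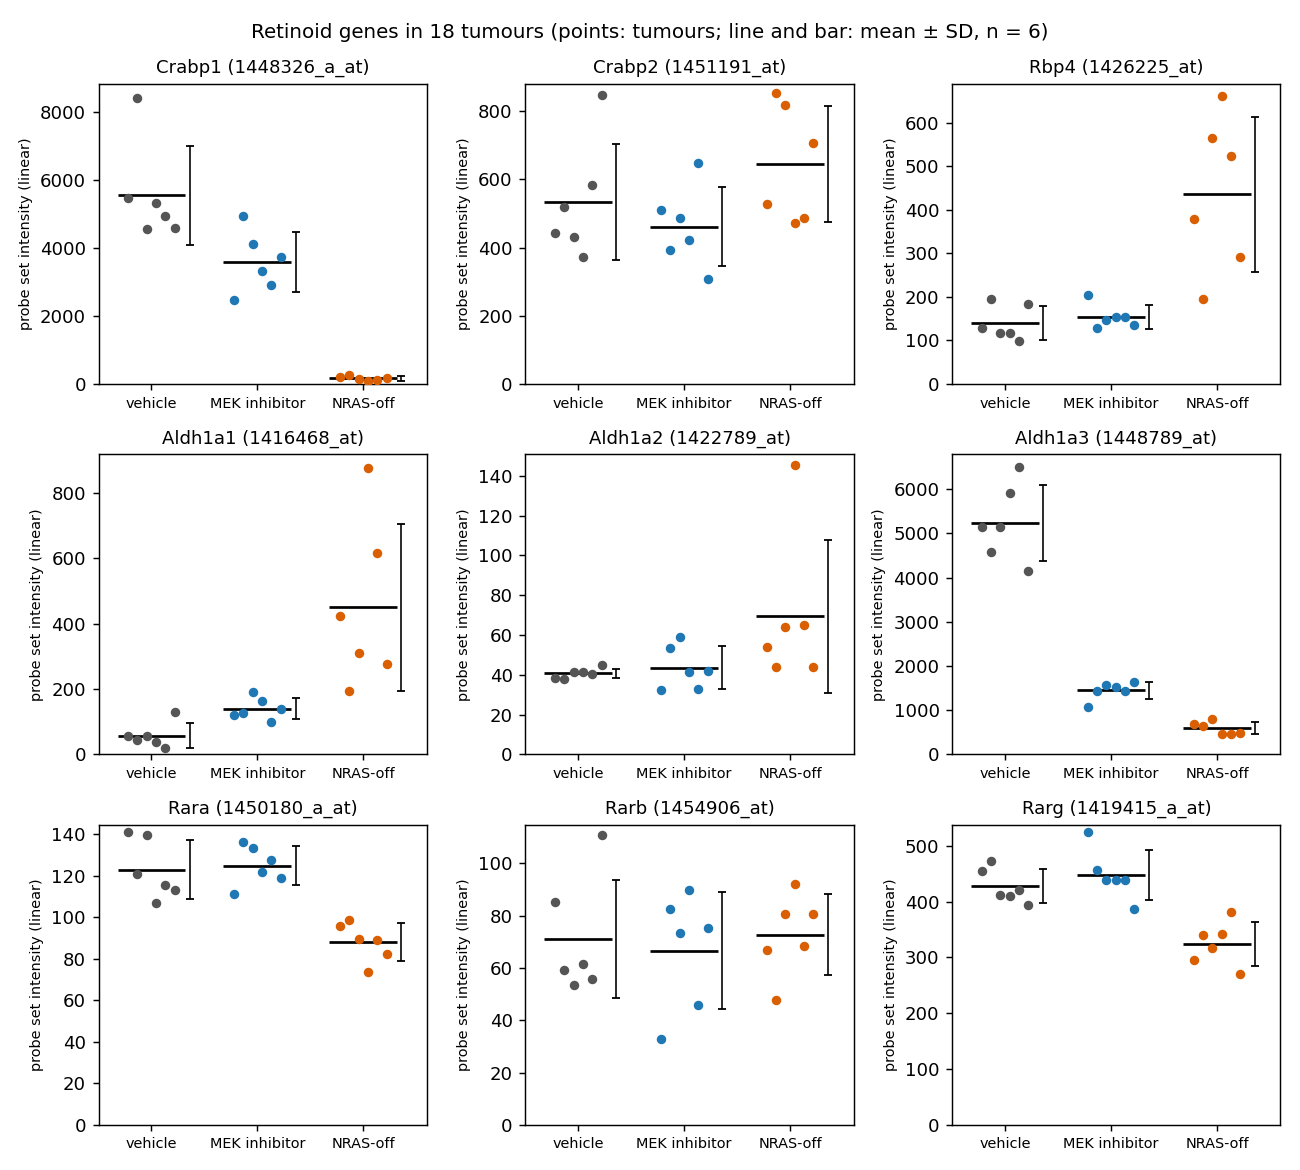
Probe set intensity on a linear axis from 0 for the 9 members in each tumour (points), by arm, with the arm mean as a line and ± SD as a bar (n = 6). Crabp1 and Aldh1a3 are lowest in NRAS-off tumours without overlap, Aldh1a1 and Rbp4 have their highest means there, and Crabp2 and Rarb overlap across all arms.

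Crabp2, the carrier that hands retinoic acid to the receptors, did not follow Crabp1. It was at 374, 482 and 848 in the lowest, median and highest vehicle tumour, at 307, 456 and 649 with the MEK inhibitor and at 472, 618 and 854 in NRAS-off tumours. The 3 arms overlapped throughout, and neither arm passed the test against vehicle. The difference was 0.28 (95% interval −0.14 to 0.69, limma adjusted p = 0.247) for NRAS-off and −0.19 (−0.61 to 0.23, adjusted p = 0.487) for the MEK inhibitor. Crabp2 is also expressed in skin epithelium: the highest NRAS-off value, 854, was in the keratinocyte-rich replicate 2 and the next, 817, in replicate 3, while the lowest MEK inhibitor value, 307, was in replicate 6, which had the most keratinocyte transcript of that arm. The part of keratinocytes in the Crabp2 values was not tested.

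Rbp4, the plasma carrier of retinol, rose in NRAS-off tumours. It was at 98.9, 122 and 195 in the lowest, median and highest vehicle tumour, at 129, 150 and 204 with the MEK inhibitor and at 195, 451 and 662 in NRAS-off tumours. The lowest NRAS-off tumour was level with the highest vehicle tumour, and the other 5 lay above both other arms. The NRAS-off mean was 3.12 times the vehicle mean, 436 ± 178 against 140 ± 39.9 (SD, n = 6), a difference of 1.47 ± 0.23 (SE, limma adjusted p = 1.98e-05). The MEK inhibitor difference was 0.15 ± 0.23 (adjusted p = 0.647). Liver and fat are the known sources of RBP4, so their markers are given here. Alb, which defines hepatocytes, lay between 17.1 and 29.8 in all 18 tumours, close to the filter of 23.5, and none of the 3 hepatocyte markers tested passed in either arm. Of 6 adipocyte markers tested, 3 (Adipoq, Fabp4 and Pparg) rose in NRAS-off tumours and none with the MEK inhibitor, and the summed adipocyte intensity was 1102 to 3322 in vehicle, 1415 to 3472 in MEK inhibitor and 5168 to 8771 in NRAS-off tumours. Most of that sum was Fabp4, with a median of 1616 in vehicle, 1407 in MEK inhibitor and 6081 in NRAS-off tumours. Adipoq overlapped, at 27.6 to 588 in vehicle and 212 to 1088 in NRAS-off tumours, and Cidec, Lep and Retn passed in neither arm. The part of adipocytes in the Rbp4 difference was not tested.

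The enzymes that make retinoic acid moved in opposite directions. Aldh1a1 was at 20.5, 49.5 and 130 in the lowest, median and highest vehicle tumour, at 99.9, 133 and 191 with the MEK inhibitor and at 195, 367 and 875 in NRAS-off tumours. All NRAS-off tumours were above all vehicle tumours, and above all MEK inhibitor tumours by a narrow margin, while the MEK inhibitor arm overlapped vehicle through 1 vehicle tumour at 130. Aldh1a1 rose in both arms: the mean was 449 ± 254 in NRAS-off, 7.85 times the vehicle mean of 57.3 ± 37.9 (SD, n = 6), and 140 ± 32.8 with the MEK inhibitor, 2.45 times it. The differences were 2.63 ± 0.32 (SE, limma adjusted p = 8.17e-07) and 1.20 ± 0.32 (adjusted p = 0.00441). With a pseudocount of 64 the MEK inhibitor difference was 0.79, still past the threshold.

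Aldh1a2, the main retinoic acid-making enzyme of the early embryo, was low and nearly constant in vehicle tumours, at 38.1, 40.8 and 44.9. It was at 32.2, 41.7 and 59.1 with the MEK inhibitor and at 43.7, 59.1 and 145 in NRAS-off tumours, where 1 tumour, replicate 4, stood far above the others and 2 lay within the vehicle range. It rose by 0.50 ± 0.18 (SE, limma adjusted p = 0.0240) in NRAS-off and differed by 0.05 ± 0.18 (adjusted p = 0.854) with the MEK inhibitor. Without NRAS-off replicate 4 the difference was 0.30 (adjusted p = 0.0310), and with a pseudocount of 64 it was 0.31.

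Aldh1a3, the form known from eye, nasal and other surface epithelia and from many carcinomas, had the largest fall among the 8 tested members. Probe set 1448789_at was at 4143, 5141 and 6490 in the lowest, median and highest vehicle tumour, at 1074, 1486 and 1639 with the MEK inhibitor and at 470, 553 and 792 in NRAS-off tumours. No pair of arms overlapped, and the order was vehicle, MEK inhibitor, NRAS-off. The vehicle mean of 5235 ± 860 (SD, n = 6) was 8.91 times the NRAS-off mean of 588 ± 137 and 3.62 times the MEK inhibitor mean of 1448 ± 199. Aldh1a3 fell by 3.13 ± 0.14 (SE, limma adjusted p = 1.65e-12) in NRAS-off and by 1.84 ± 0.14 (adjusted p = 5.80e-09) with the MEK inhibitor. Its other probe sets fell in both arms as well in a fit over 27656 probe sets. The NRAS-off and MEK inhibitor differences were −2.71 ± 0.13 and −1.94 ± 0.13 for 1417642_at, and −3.77 ± 0.15 and −2.11 ± 0.15 for 1427395_a_at. The probe sets thus had the same order of arms, with a gap between the treated arms of −0.77, −1.66 and −1.30 for 1417642_at, 1427395_a_at and 1448789_at.

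**Figure D2:**
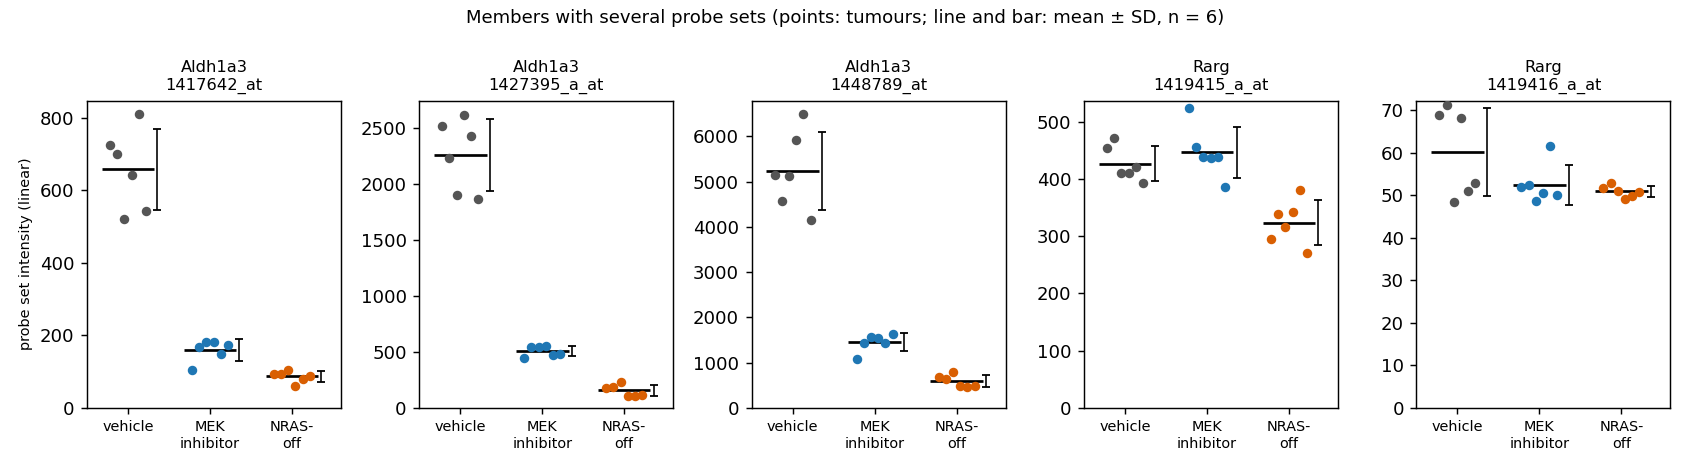
Intensity on a linear axis from 0 for the 3 probe sets of Aldh1a3 and the 2 of Rarg in each tumour (points), by arm, with mean and ± SD (n = 6). The Aldh1a3 probe sets all have the highest values in vehicle and the lowest mean in NRAS-off tumours, whereas the low-intensity Rarg probe set 1419416_a_at has overlapping arms.

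The receptors changed little in size. Rara was at 107, 118 and 141 in the lowest, median and highest vehicle tumour, at 111, 125 and 136 with the MEK inhibitor and at 73.6, 89.1 and 98.4 in NRAS-off tumours, which lay below both other arms without overlap. It fell by 0.41 ± 0.07 (SE, limma adjusted p = 6.35e-05) in NRAS-off, and its MEK inhibitor difference was 0.02 ± 0.07 (adjusted p = 0.827).

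Rarg had a similar pattern. Probe set 1419415_a_at was at 394, 416 and 473 in the lowest, median and highest vehicle tumour, at 387, 438 and 525 with the MEK inhibitor and at 271, 328 and 381 in NRAS-off tumours, again below both other arms without overlap. The difference was −0.39 ± 0.08 (SE, limma adjusted p = 0.000255) in NRAS-off and 0.06 ± 0.08 (adjusted p = 0.572) with the MEK inhibitor. The second probe set, 1419416_a_at, ranged only from 48.4 to 71.1, did not separate the arms and missed the threshold, at −0.18 ± 0.07 (adjusted p = 0.0503) in NRAS-off and −0.14 (adjusted p = 0.127) with the MEK inhibitor.

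Rarb, the receptor gene that retinoic acid itself induces through the DR5 element printed above, passed the test in neither arm. It was at 53.5, 60.4 and 111 in the lowest, median and highest vehicle tumour, at 32.8, 74.3 and 89.9 with the MEK inhibitor and at 47.9, 74.6 and 92.2 in NRAS-off tumours. All arms overlapped. The difference from vehicle was 0.05 (95% interval −0.35 to 0.44, limma adjusted p = 0.853) in NRAS-off and −0.09 (−0.49 to 0.30, adjusted p = 0.738) with the MEK inhibitor.

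**Figure D3:**
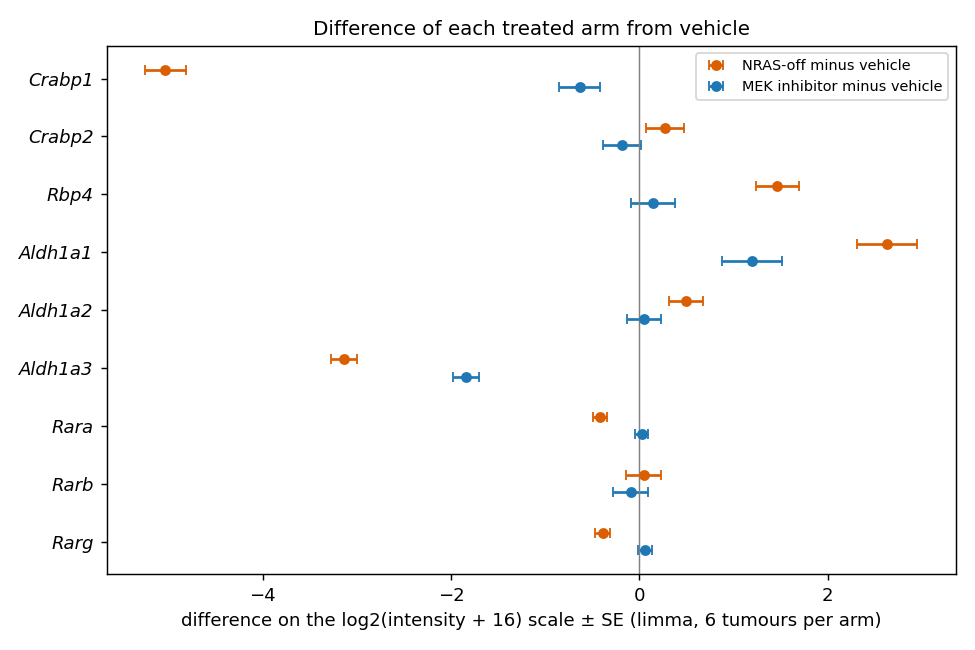
Difference of each treated arm from vehicle for the 9 members, in log2(intensity + 16) units, with bars of ± SE from limma (6 tumours per arm). Crabp1, shown as a description, is at −5.03 in NRAS-off and −0.63 with the MEK inhibitor; Aldh1a3 lies below 0 and Aldh1a1 above 0 in both arms.

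Counted over the 8 members tested, 3 rose in NRAS-off tumours (Rbp4, Aldh1a1 and Aldh1a2), 3 fell (Aldh1a3, Rara and Rarg) and 2 did not pass (Crabp2 and Rarb). Over all 15005 genes, 31.8% rose and 27.5% fell in that comparison, so this count is near the background. With the MEK inhibitor 1 member rose (Aldh1a1), 1 fell (Aldh1a3) and 6 did not pass, against 24.3% and 20.9% of all genes. The median difference of the 8 was 0.16 in NRAS-off, against 0.0036 for all genes, and 0.04 with the MEK inhibitor, against 0.0089. The arm did not overlap vehicle for 4 of the 8 in NRAS-off (39.2% of all genes) and for 1, Aldh1a3, with the MEK inhibitor (25.5%). All 9 members passed the filter on low intensity, and no arm mean of a member was below it. The counts stayed at 6 and 2 when both keratinocyte-rich tumours were left out, an alternative added after the data had been seen. Both comparisons share the vehicle tumours.

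Between the treated arms, NRAS-off and MEK inhibitor tumours did not overlap for 5 of the 9 members, 4 without Crabp1, against 28.3% of all genes; since this contrast chose the set, nothing is read from that count. The NRAS-off minus MEK inhibitor differences were 1.43 ± 0.32 (SE) for Aldh1a1, 1.32 ± 0.23 for Rbp4, 0.46 ± 0.20 for Crabp2 and 0.45 ± 0.18 for Aldh1a2. They were −1.30 ± 0.14 for Aldh1a3, −0.44 ± 0.07 for Rara and −0.45 ± 0.08 for Rarg, the last being −0.24 with the mean of both its probe sets. Thus Aldh1a1 and Aldh1a3 lay on the same side of vehicle in both arms and farther from it in NRAS-off, whereas Rbp4, Aldh1a2, Rara and Rarg passed the test against vehicle in NRAS-off but not with the MEK inhibitor.

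Within the NRAS-off arm the extreme values of 7 of the 9 members lay in the same 2 tumours. The share of all genes with their extremes in these tumours was not counted, so nothing is read from that number. Replicate 4 had the highest value of the arm for Rbp4 (662), Aldh1a1 (875), Aldh1a2 (145) and Rarb (92.2), and the lowest for Crabp1 (85.6), Crabp2 (472) and Rara (73.6). Replicate 2 was the reverse for the same 7 genes: it had the lowest Rbp4 (195), Aldh1a1 (195), Aldh1a2 (43.7) and Rarb (47.9), and the highest Crabp1 (251), Crabp2 (854) and Rara (98.4). The exceptions were Aldh1a3, highest in replicate 3 (792) and lowest in replicate 5 (470), and Rarg, highest in replicate 5 (381) and lowest in replicate 6 (271). Replicate 2 is the tumour with the most keratinocyte transcript; the part of those cells in these values was not tested. Without replicate 2 the NRAS-off difference from vehicle was 2.82 for Aldh1a1 and 1.66 for Rbp4, and without replicate 4 it was 2.41 and 1.33.

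**Figure D4:**
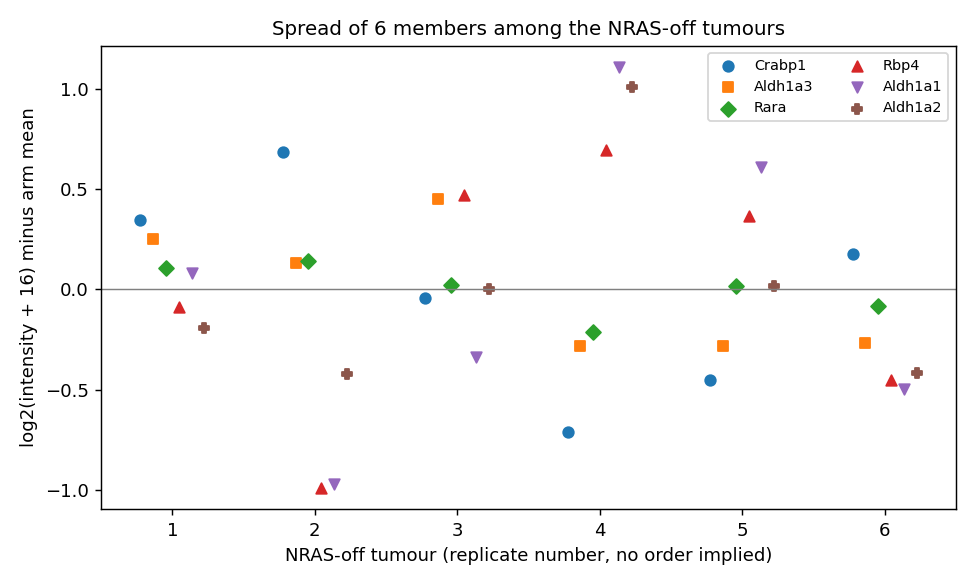
Deviation of 6 members from their NRAS-off arm mean, in log2(intensity + 16) units, in each of the 6 NRAS-off tumours, numbered by replicate with no order implied. In replicate 4 Rbp4, Aldh1a1 and Aldh1a2 lie above and Crabp1, Aldh1a3 and Rara below the mean, and in replicate 2 they lie on the other side. Crabp2, Rarb and Rarg are not shown. Rarg lay above its mean in both, by 0.08 in replicate 4 and 0.07 in replicate 2.

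The genes whose log2 values correlated best with each member over the 18 tumours are a description only, since all points share the 3 arms. For Crabp1 they were Tm4sf1, Slc35a1, Dlx1, Dagla and Ajap1, with Pearson r of 0.988, 0.986, 0.985, 0.984 and 0.984. After the arm means were removed, those correlations were 0.687, 0.466, 0.488, 0.367 and 0.403. Aldh1a3 was most like Hes1, a Notch target (r = 0.991, 0.814 within arms), and Specc1 (0.989). Aldh1a1 was most like Eln, which encodes elastin of the extracellular matrix (0.963, 0.827 within arms), and C2cd2 (0.962). Rbp4 was most like Gca (0.941) and Fndc5 (0.934). Aldh1a2 was most like Siglecf and Alox15, known from eosinophils and some macrophages (both 0.896, and 0.848 and 0.846 within arms). NRAS-off replicate 4, with Aldh1a2 at 145 against 43.7 to 65.1 in the rest of its arm, can weigh heavily in these values. The Aldh1a2 correlations were not computed without that tumour. Rara was most like Mcph1 (0.920) and Nck2 (0.914), Rarg like Sh3pxd2a (0.931) and Ago2 (0.915), and Rarb like Enpep (0.833) and Pdia3 (0.777). Crabp2 had the lowest, with Uqcc1 (0.751) and Zfp617 (0.738).

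Markers of host cells moved with the arms and stand beside these values. Over all genes, 31.8% rose and 27.5% fell in NRAS-off, and 24.3% rose and 20.9% fell with the MEK inhibitor. In NRAS-off tumours 10 of 12 fibroblast markers rose and 2 fell, and in MEK inhibitor tumours 7 rose and 1 fell; their summed intensity was 81308 to 101895 in vehicle, 124953 to 134208 with the MEK inhibitor and 190288 to 228001 in NRAS-off tumours. Macrophage markers rose for 11 of 12 in NRAS-off and fell for 10 of 12 with the MEK inhibitor, with sums of 23942 to 38998, 63307 to 78892 and 11238 to 26400 in vehicle, NRAS-off and MEK inhibitor tumours. All 8 endothelial markers rose in NRAS-off, and 1 rose and 1 fell with the MEK inhibitor. All 8 skeletal muscle markers rose in both arms, and of 4 Schwann cell markers tested 3 rose and 1 fell in NRAS-off, and 2 rose and 1 fell with the MEK inhibitor. The summed fibroblast, skeletal muscle, Schwann cell, endothelial and keratinocyte intensities had the same order of arm medians as Aldh1a1, namely vehicle, MEK inhibitor, NRAS-off. For the endothelial and keratinocyte sums the vehicle and MEK inhibitor ranges overlapped. For the skeletal muscle, Schwann cell and keratinocyte sums the MEK inhibitor and NRAS-off ranges overlapped, whereas for Aldh1a1 they did not. Cdh19, part of the Schwann cell sum, had medians of 3449 in vehicle, 8347 with the MEK inhibitor and 8107 in NRAS-off tumours. Egr2, also part of that sum, fell in both arms, with medians of 3155 in vehicle, 343 with the MEK inhibitor and 828 in NRAS-off tumours. All 5 dendritic cell markers tested rose in NRAS-off, and 1 fell with the MEK inhibitor. None of the 10 keratinocyte markers passed in either arm. Of the 6 melanocytic markers tested, 4 rose in NRAS-off (Mitf, Pmel, Mlana and Dct) and 2 with the MEK inhibitor (Sox10 and Pmel), and none fell; the summed melanocytic intensity was 9048 to 11145 in vehicle, 9657 to 13018 in NRAS-off and 12416 to 17703 in MEK inhibitor tumours. Most of that sum was Sox10, with a median of 9162 in vehicle and 9424 in NRAS-off tumours. The part of the share of tumour cells in the lower values of Crabp1 and Aldh1a3, and of host cells in the rises of Aldh1a1, Aldh1a2 and Rbp4, was not tested.

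Beyond the members, 63 further genes of retinol handling, retinoic acid synthesis, breakdown and response were listed, of which 43 were tested. In NRAS-off tumours 17 rose, 7 fell and 19 did not pass; with the MEK inhibitor 11 rose, 9 fell and 23 did not pass. The medians were 0.10 and −0.00. For all genes tested the medians were 0.0036 and 0.0089. Of all genes, 31.8% rose and 27.5% fell in NRAS-off, and 24.3% rose and 20.9% fell with the MEK inhibitor. The same shares stand beside the subgroup counts below, and no subgroup was tested as a set.

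In retinol uptake and storage, 1 of 7 genes tested rose in NRAS-off and none passed with the MEK inhibitor. That gene was Rbp7, an intracellular retinol carrier known from fat and its vessels. It was at 23.1, 24.2 and 31.3 in the lowest, median and highest vehicle tumour, at 21.8, 26.3 and 30.3 with the MEK inhibitor and at 128, 170 and 238 in NRAS-off tumours. The vehicle and MEK inhibitor values were close to the filter of 23.5. The differences were 2.15 ± 0.11 (SE) in NRAS-off, 1.39 with a pseudocount of 64, and −0.01 ± 0.11 (limma adjusted p = 0.938) with the MEK inhibitor. Stra6, the membrane receptor for RBP4, differed by 0.14 ± 0.15 (adjusted p = 0.456) and 0.05 (adjusted p = 0.811).

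Among 14 dehydrogenases and related enzymes tested, 5 rose and 3 fell in NRAS-off, and 3 rose and 4 fell with the MEK inhibitor. Rdh10, which makes retinal from retinol, fell by a similar amount in both arms. It was at 1811, 2027 and 2662 in the lowest, median and highest vehicle tumour, at 734, 858 and 947 in NRAS-off and at 615, 856 and 1099 with the MEK inhibitor, and both treated arms lay below vehicle without overlap. The falls were −1.28 ± 0.12 and −1.33 ± 0.12. Rdh5 fell as well (−1.09 ± 0.10 and −0.72 ± 0.10). Adh1, an alcohol dehydrogenase that accepts retinol, rose by 2.39 ± 0.22 in NRAS-off and by 0.66 ± 0.22 with the MEK inhibitor. Its MEK inhibitor difference was 0.51 (limma adjusted p = 0.0539) without the keratinocyte-rich tumours. Dhrs3, which turns retinal back to retinol, rose with the MEK inhibitor, by 0.80 ± 0.17 (adjusted p = 0.000754), from a vehicle range of 1102 to 1647 to a range of 1300 to 3247, and differed by −0.11 ± 0.17 (adjusted p = 0.605) in NRAS-off.

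Of the retinoic acid breakdown enzymes, Cyp26a1, itself a direct target of retinoic acid, fell slightly, by 0.21 ± 0.07 in NRAS-off (SE, limma adjusted p = 0.0152) and by 0.18 ± 0.07 with the MEK inhibitor (adjusted p = 0.0456). The MEK inhibitor call was lost when any of 12 single tumours was left out. It was also lost with a pseudocount of 64 (adjusted p = 0.0697), with only the 2 groups compared (0.0761), with no filter (0.0501) and without both keratinocyte-rich tumours (0.0589). With a pseudocount of 64 the differences were −0.11 and −0.10. Cyp26b1 passed in neither arm, at −0.13 ± 0.23 (adjusted p = 0.652) and 0.31 ± 0.23 (adjusted p = 0.294).

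Of the 5 other carriers and nuclear partners tested, 4 rose in each arm, and they were Rxra, Rxrb, Rxrg and Fabp5 in both. Rxrg, the RXR form of muscle and parts of the nervous system and neural crest, was at 72.1, 87.1 and 122 in the lowest, median and highest vehicle tumour, at 263, 295 and 386 in NRAS-off and at 243, 317 and 430 with the MEK inhibitor. Both treated arms lay above vehicle without overlap and overlapped each other, with differences of 1.60 ± 0.14 and 1.62 ± 0.14 (SE). All 8 skeletal muscle markers rose beside Rxrg in both arms. Their summed intensity was 3038 to 15722 in vehicle, 29576 to 46344 (median 38490) in NRAS-off and 18060 to 43439 (median 20362) in MEK inhibitor tumours. Of 4 Schwann cell markers, 3 rose and 1 fell in NRAS-off, and 2 rose and 1 fell with the MEK inhibitor. Among them Cdh19 rose by 1.12 and 1.22. The part of muscle or Schwann cells in the Rxrg difference was not tested. Rxra rose by 0.54 ± 0.09 and 0.58 ± 0.09, but its probe sets differed: their mean gave 0.07 (limma adjusted p = 0.202) and 0.18. Rxrb rose by 0.35 ± 0.09 and 0.52 ± 0.09. Fabp5, which carries retinoic acid to another receptor, differed by 0.29 ± 0.10 (adjusted p = 0.0189) and 0.31 ± 0.10 (adjusted p = 0.0204). Its NRAS-off call was lost without the keratinocyte-rich tumours (0.21, adjusted p = 0.0557) and with quantile normalization (0.26, adjusted p = 0.0515), and its MEK inhibitor call with the mean of its probe sets (0.28, adjusted p = 0.0683) and with its most variable probe set (0.25, adjusted p = 0.189).

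Of the 4 receptor coregulators tested, the coactivators Ncoa1, Ncoa2 and Ncoa3 rose and Nrip1, a corepressor that retinoic acid can induce, fell in both arms. Nrip1 differed by −0.80 ± 0.08 (SE) in NRAS-off and −0.83 ± 0.08 with the MEK inhibitor. The coactivators rose by 0.60 ± 0.06, 0.64 ± 0.09 and 0.85 ± 0.09 in NRAS-off, and by 0.36, 0.83 and 0.40 with the MEK inhibitor. With the mean of all probe sets those were 0.36, 0.21 and 0.53, and 0.21, 0.39 and 0.09, of which the last was no longer called (limma adjusted p = 0.228).

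Of 11 genes known to be induced by retinoic acid in other cells, 4 rose and 2 fell in NRAS-off and 1 rose and 3 fell with the MEK inhibitor. Rarres2, which encodes the adipose-rich chemoattractant chemerin, rose by 0.83 ± 0.19 (SE) in NRAS-off and differed by −0.34 ± 0.19 (limma adjusted p = 0.145) with the MEK inhibitor. Meis2, a homeobox cofactor, rose in both arms by 0.71 ± 0.10 and 0.67 ± 0.10, and by 0.20 in NRAS-off with the mean of its probe sets. Hoxb2 fell in both arms (−0.66 ± 0.08 and −0.62 ± 0.08). Hoxa5 rose by 0.60 ± 0.15 in NRAS-off, 0.28 with the mean of its probe sets, and differed by 0.34 ± 0.15 (adjusted p = 0.0747) with the MEK inhibitor. That difference passed under 6 alternatives, among them the mean of its probe sets (0.23, adjusted p = 0.0310), leaving out MEK inhibitor replicate 6 (0.45, adjusted p = 0.0109) and leaving out both keratinocyte-rich tumours (0.45, adjusted p = 0.0129). Together with Rarb, which did not pass, and Cyp26a1, which fell slightly at low intensity, these genes had no common direction in NRAS-off tumours.

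**Figure D5:**
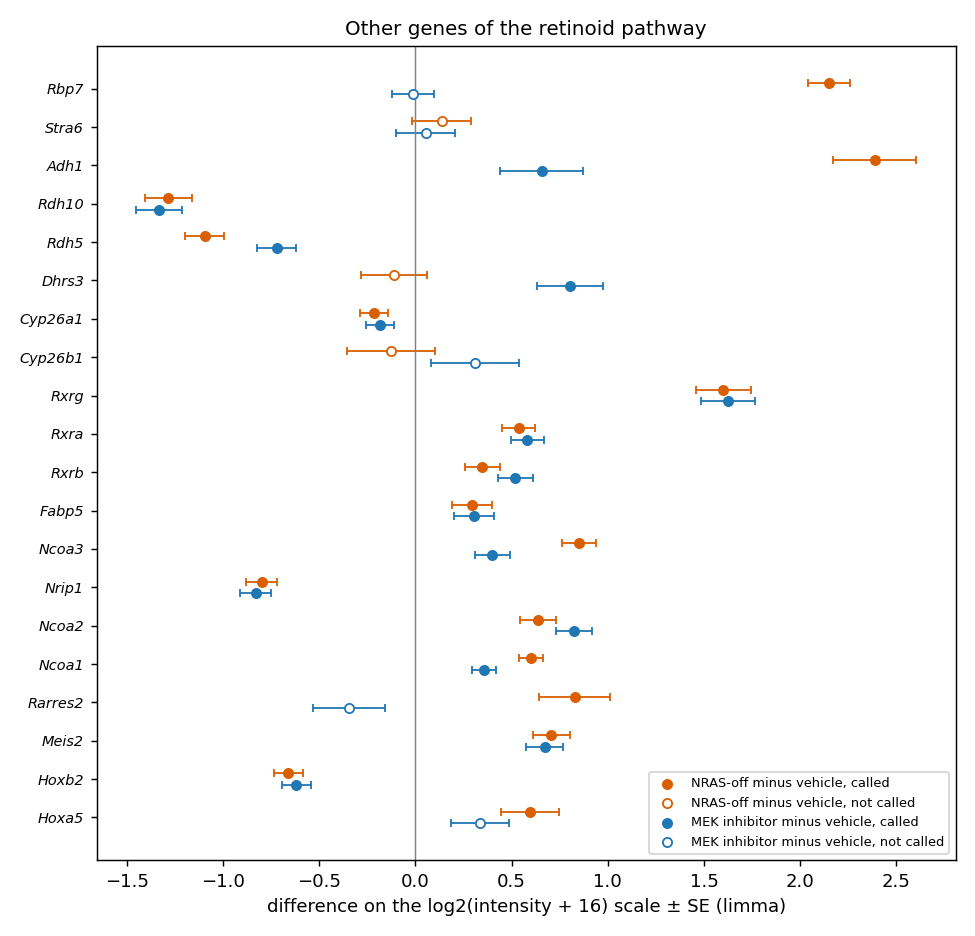
Difference from vehicle of 20 other retinoid pathway genes in the NRAS-off and MEK inhibitor arms, in log2(intensity + 16) units with bars of ± SE from limma; filled points passed the adjusted threshold of 0.05 and open points did not. Rbp7 is at 2.15 in NRAS-off and −0.01 with the MEK inhibitor, whereas Rxrg and Rdh10 lie at similar values in both arms.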

How the data were processed

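The deposited table holds probe set intensity values for 45037 probe sets on 18 one-colour Affymetrix arrays, 6 per arm. MAS5 and RMA are named per the submitters' processing notes, without versions or which made the table. The values were read as linear intensity because they reach 44480, beyond any log2 scale; another transformation would change every fold. Probe sets were assigned by the platform annotation: 34945 had 1 gene symbol, 932 several and 9160 none. For each gene the single-symbol probe set of highest mean was used, as log2(intensity + 16), and genes at or below the 25th percentile (intensity 23.5) were left out, leaving 15005. The 3 arms were fitted together with limma 3.58.1 (R 4.3.3; lmFit, eBayes), with Benjamini-Hochberg adjusted p under 0.05 as the threshold in each contrast. The script was tested on simulated data. Plots used Python 3.11.15 and matplotlib 3.10.9.

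The members and all lists were chosen with earlier results of these data known. Genes outside the set were named by a rule: up to 4 of the largest changes called per pathway subgroup plus 10 fixed genes, and the 5 (Crabp1) or 2 (others) genes most correlated with a member. No batch or date is labelled, and the number of arrays limits the precision. Alternatives covered scaling, filter, pseudocount, probe set choice, array weights, the replicate block and leaving out tumours.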

Additional observations from a re-analysis of the deposited data

Results flagged for a closer look

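In 6 of the 66 groups of 6 tumours examined, 1 tumour lay far from the others by Dixon's gap criterion, which chance alone exceeds in about 1 of 20 groups. The NRAS-off replicate 4 tumour had Aldh1a2 at 145, against 43.7 to 65.1 in the other 5. The MEK inhibitor replicate 1 tumour had Aldh1a3 (1448789_at) at 1074, against 1439 to 1639. The vehicle replicate 2 tumour had Crabp1 at 8433, against 4571 to 5467. The MEK inhibitor replicate 5 tumour had the low-intensity Rarg probe set 1419416_a_at at 61.6, against 48.6 to 52.3. The mean log2 value of the keratinocyte markers was 10.28 in NRAS-off replicate 2, against 6.09 to 6.60, and 7.00 in MEK inhibitor replicate 6, against 5.94 to 6.21.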

How the results depend on the processing

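Over 13 alternative settings and 18 fits that each left out 1 tumour, the NRAS-off member count was 5 to 6 and the MEK inhibitor count 2 throughout. The lower value came from a filter at the 50th percentile, which removed Aldh1a2 and Rarb. The pathway count was 18 to 27 in NRAS-off and 19 to 21 with the MEK inhibitor, and 22 to 26 and 19 to 22 with 1 tumour left out. The Crabp1 difference between the treated arms was −4.56 to −4.04 over the settings and −4.54 to −4.26 with 1 tumour left out. With the replicate block, 6 and 2 members and 24 and 19 pathway genes passed, against 24 and 20 without it, and Cyp26a1 was not called with the MEK inhibitor (adjusted p = 0.0671). After the arm means were removed, same-numbered tumours of different arms correlated at −0.12 to 0.34, and 6 of 18 pairs exceeded 0.1. Tumours of different numbers were not compared in this way, so these values cannot decide whether the numbers pair the tumours. The median of all genes in NRAS-off minus vehicle was 0.0036 as deposited, −0.030 after median scaling and −0.0050 after quantile normalization.

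The values that changed sign were all small and called under no setting. With 1 tumour left out, the MEK inhibitor difference from vehicle was −0.021 to 0.11 for Aldh1a2, −0.010 to 0.061 for Rara, −0.17 to 0.051 for Rarb, −0.043 to 0.021 for Rbp7 and −0.018 to 0.17 for Stra6, and the NRAS-off difference was −0.016 to 0.16 for Rarb. With the mean of all probe sets the Rarg MEK inhibitor difference was −0.042. With array weights the Rbp7 MEK inhibitor difference was 0.0048. Without both keratinocyte-rich tumours the Stra6 MEK inhibitor difference was −0.0064. The cause of these changes was not tested.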
